A study of Homo sapiens with 8 samples.

Results

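The HOX cluster genes were examined in RNA-seq counts of a KRT19 overexpression experiment. They were taken as every protein-coding row of the deposited gene table whose symbol is HOX, a cluster letter from A to D and a number, and this gave 39 genes of 58735 rows. HOXA held 11 of them, HOXB 10, HOXC 9 and HOXD 9. The choice used symbols and gene type only, and no measured value. All 39 were found in the table, with counts in 8 libraries. The questions were which paralogs of each cluster were expressed, and whether the KRT19 libraries differed from the EV libraries.

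HOX genes encode homeodomain transcription factors that pattern the head-to-tail axis of the embryo. In each cluster the genes lie in a row, all read in the same direction, and genes with the same number in different clusters are paralogs. Genes with low numbers lie at the 3' end and act in anterior regions, genes with high numbers lie at the 5' end and act in posterior regions, and adult cells keep part of this pattern as a record of their position of origin. HOX proteins bind DNA together with TALE homeodomain partners such as the PBX and MEIS proteins. Polycomb complexes hold silent HOX genes in a repressed state, trithorax proteins keep active ones on, CTCF and cohesin separate active from silent stretches, and retinoic acid induces the 3' genes.

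All 8 libraries came from human cells labelled A549, an established lung adenocarcinoma cell line. The EV group (n = 4) carried an empty lentiviral vector and the KRT19 group (n = 4, labelled KRT19-OVE) a lentivirus for Flag-tagged keratin 19, an intermediate filament protein of epithelia. Per the study's methods, both were stable lines selected with puromycin, so all libraries share transduction and selection. No source used here said whether the 4 libraries of a group came from separate cultures, so p-values measure the spread between these libraries, which may be technical.

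Total counts ran from 14073065 to 17054364 per library, and the floor of 3 counts corresponded to 0.176 to 0.213 CPM, the count scaled by library size. KRT19 itself checked the labels, with 1 to 5 counts in the EV libraries and 4353 to 5147 in the KRT19 libraries (log2 fold change 10.75 ± 0.12 SE, edgeR quasi-likelihood adjusted p = 5.19e-20). Markers of the labelled line went against the label in both groups alike. CDKN2A (1328 to 1824 counts), CDKN2B (466 to 659) and MTAP (653 to 870), whose shared locus is known to be deleted in A549, were all expressed, with a summed level of 125 to 134 TPM in EV and 121 to 137 in KRT19. Of 6 NRF2-driven genes for which A549 is known, 3 were detected: NQO1 had 6009 to 7518 counts, but AKR1B10 had 1 to 14 and ALDH3A1 0 to 4 (summed level of the list 481 to 493 TPM in EV and 481 to 495 in KRT19). Of 6 epithelial markers, 3 were detected, and EPCAM, CDH1 and CLDN7 had at most 3 counts while KRT8 (2988 to 3857) and KRT18 (4271 to 5746) were abundant. Of 9 lung lineage markers, 4 were detected, with 1168 to 1535 counts of ABCA3, 75 to 101 of LAMP3 and 51 to 71 of FOXA1, while FOXA2, SFTPA1, SFTPB and SFTPC were at 0 in every library. GATA6 was lower in KRT19 without overlap (186 to 255 counts, log2 fold change -0.22, edgeR unadjusted p = 0.0258, adjusted p = 0.906). Over all genes tested, 3.44% did not overlap and 2.56% were lower at an unadjusted p under 0.05. The edgeR unadjusted p of GATA6 was 0.104 without EV replicate 1 (log2 fold change -0.15), 0.0685 without KRT19 replicate 1 (-0.19) and 0.0502 without KRT19 replicate 4 (-0.21). The label text on extraction names retinas, but RCVRN was at 0 and 1 of 7 retina markers was detected (NRL, 9 to 24 counts). Markers of fibroblasts (1 of 6 detected), endothelium (2 of 3) and leukocytes (0 of 5) had at most 54 counts. The cells are therefore named below as cells labelled A549. Per the study's methods, short tandem repeat profiling was used to authenticate all its cell lines. KRT19 replicate 3 stood farthest from its group. Against the other 3 KRT19 libraries its counts differed by 7.14 to 12.4 chi-square units per degree of freedom, and all other pairs within a group by 2.67 to 6.02. Values that moved most without this library are given with and without it.

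Of the 39 HOX genes, 25 (64.1%) were detected, defined as more than 3 counts in each library, and 24 had a mean level of at least 1 TPM. TPM is the count divided by the deposited gene length and scaled within each library, so that genes can be compared per length. HOXA had 8 detected genes, HOXB 8, HOXC 6 and HOXD 3. By position in the clusters, 4 of 8 anterior genes (paralog groups 1 to 3), 13 of 15 central genes (4 to 8) and 8 of 16 posterior genes (9 to 13) were detected. For scale, 66 of the 155 other homeobox genes of the table (42.6%) were detected by the same definition. That difference was not tested.

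**Figure D1:**
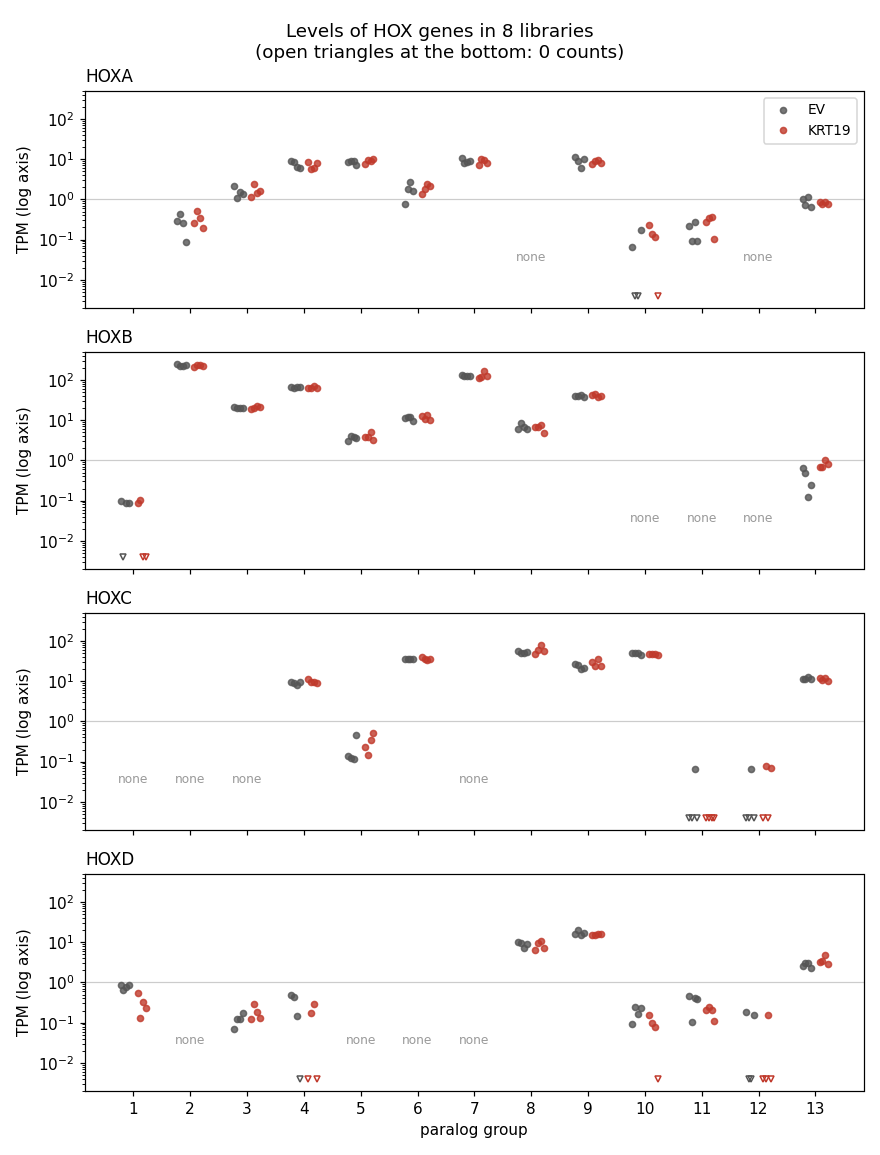
Level of the HOX genes reported here in each of the 8 libraries, in TPM on a log axis, by paralog group (horizontal axis) and cluster (panels). Grey points are EV libraries, red points KRT19 libraries, open triangles at the bottom mark a count of 0, and "none" marks a paralog that the cluster lacks. HOXB2 lies highest at 216 to 245 TPM, and the EV and KRT19 points of a gene largely cover the same range.

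HOXB carried most of the HOX signal. Its genes made up 66.1% of the summed HOX TPM (65.1% to 67.6% over the 8 libraries), HOXC 24.3%, HOXA 5.86% and HOXD 3.81%. The sum over all 39 genes was 771 ± 23.1 TPM (SD, n = 4) in EV and 781 ± 55.4 TPM (SD, n = 4) in KRT19. In bulk RNA of this kind, fewer cells expressing a gene and less RNA per cell cannot be told apart.

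HOXB2, a paralog that acts in the hindbrain and neural crest in development, was the highest of all, with a mean of 232 TPM over the 8 libraries, at percentile 95.5 of the genes tested. HOXB7, a central gene studied in several carcinomas, followed with 130 TPM. HOXB4, known for its part in blood stem cell expansion, had 66.3 TPM, HOXC8 56.7 and HOXC10 48.2. The ranges of HOXB2 and HOXB7 over the 8 libraries did not meet those of the next gene in the order, whereas HOXB4, HOXC8 and HOXC10 formed a run of overlapping neighbours. HOXC10 in turn was only just separate from HOXB9 (41.1 TPM), with a lowest library of 44.93 TPM against a highest of 44.88 TPM for HOXB9.

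Below these came HOXC6 (36.1 TPM), HOXC9 (26.1), HOXB3 (20.7) and HOXD9 (16.3), after which the ranges were again separate. From HOXC13 (11.5 TPM) downward no further pair of neighbours was separate. This lower stretch included HOXB6 (11.4 TPM), HOXC4 (9.50), HOXA7 (8.92), HOXA9 (8.82), HOXA5 (8.81), HOXD8 (8.78), HOXA4 (7.24), HOXB8 (6.66), HOXB5 (3.79), HOXD13 (3.14), HOXA6 (1.84) and HOXA3 (1.57). HOXA13, a gene of the distal limb and the hindgut end, was detected at 0.856 TPM.

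Another 14 genes fell under the definition of detection. HOXB13, a posterior gene known as a prostate lineage factor, had 2 to 17 counts (0.589 TPM). HOXD1 had 1 to 8 counts. The other 12 were HOXA2, HOXA10, HOXA11, HOXB1, HOXC5, HOXC11, HOXC12, HOXD3, HOXD4, HOXD10, HOXD11 and HOXD12, each with 0 to 5 counts per library and a mean of 0.00823 to 0.302 TPM. Of these HOXA2, HOXA11, HOXC5, HOXD3 and HOXD11 had at least 1 count in every library. Where a library had 0 counts, the level could still be up to 3 counts, a limit that covers counting error only.

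Several of these levels depend on how reads in shared exons were counted, which the sources used here do not give. The kit does not mark strand, so reads from a gene and an antisense partner cannot be told apart. Of the exon bases of HOXD4 80.5% are shared with another row of the table, of HOXD3 74.1%, of HOXA7 62.5%, of HOXC5 59.9%, of HOXD1 58.1%, of HOXA4 47.3%, of HOXA6 40.1%, of HOXB6 32.9%, of HOXA11 31.1%, of HOXA9 27.0% and of HOXA10 26.3%. Smaller parts are shared in other genes, such as HOXC4 (17.8%), HOXB4 (17.1%), HOXC6 (15.7%) and HOXB3 (13.2%). None of the exon bases of HOXA5, HOXB7, HOXB8, HOXB9, HOXB13, HOXC8, HOXD8, HOXD9 or HOXD13 is shared. The levels of genes with shared bases may therefore be too low or include reads of a partner. HOXC4, with 99 to 146 counts, shares 484 exon bases on the same strand with HOXC6, which had 480 to 675 counts. If no read in shared bases had been counted, the length to divide by would be shorter, and with that length, an alternative chosen after seeing the data, 7 genes moved by over 1.5 times. HOXA7 moved from 8.92 to 23.8 TPM and from rank 14 to rank 10 of the 39, HOXA4 from 7.24 to 13.7 TPM and HOXA6 from 1.84 to 3.08 TPM. HOXD1 moved from 0.546 to 1.30 TPM, HOXD4 from 0.195 to 0.998, HOXC5 from 0.262 to 0.653 and HOXD3 from 0.152 to 0.586. HOXB2, HOXB7, HOXB4, HOXC8 and HOXC10 kept ranks 1 to 5, and HOXA7 remained the highest HOXA gene. HOXA7, for instance, overlaps the antisense gene HOXA-AS3, which had 2 to 12 counts. HOXC5 has a further, noncoding row under the same symbol, which was at 0 and is not among the 39.

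In HOXA, HOXC and HOXD near-silent genes lay between expressed ones, whereas the detected genes of HOXB formed an unbroken run. HOXA lies on chromosome 7 (GRCh38, minus strand), and HOXA9 at 8.82 TPM lies next to HOXA10 (0.0903 TPM), which is followed by HOXA11 (0.220 TPM) and the detected HOXA13. In HOXB (chr17:48528526-48729178, minus strand), HOXB2 to HOXB9 were all detected and HOXB1 had 0 to 1 counts. In HOXC (chr12:53938765-54056030, plus strand), HOXC13 at 11.5 TPM and HOXC10 at 48.2 TPM flank HOXC12 and HOXC11, which had 0 to 1 counts each. In HOXD (chr2:176092891-176190907, plus strand), only HOXD8, HOXD9 and HOXD13 were detected, and the 3 genes between HOXD9 and HOXD13 had at most 4 counts.

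**Figure D2:**
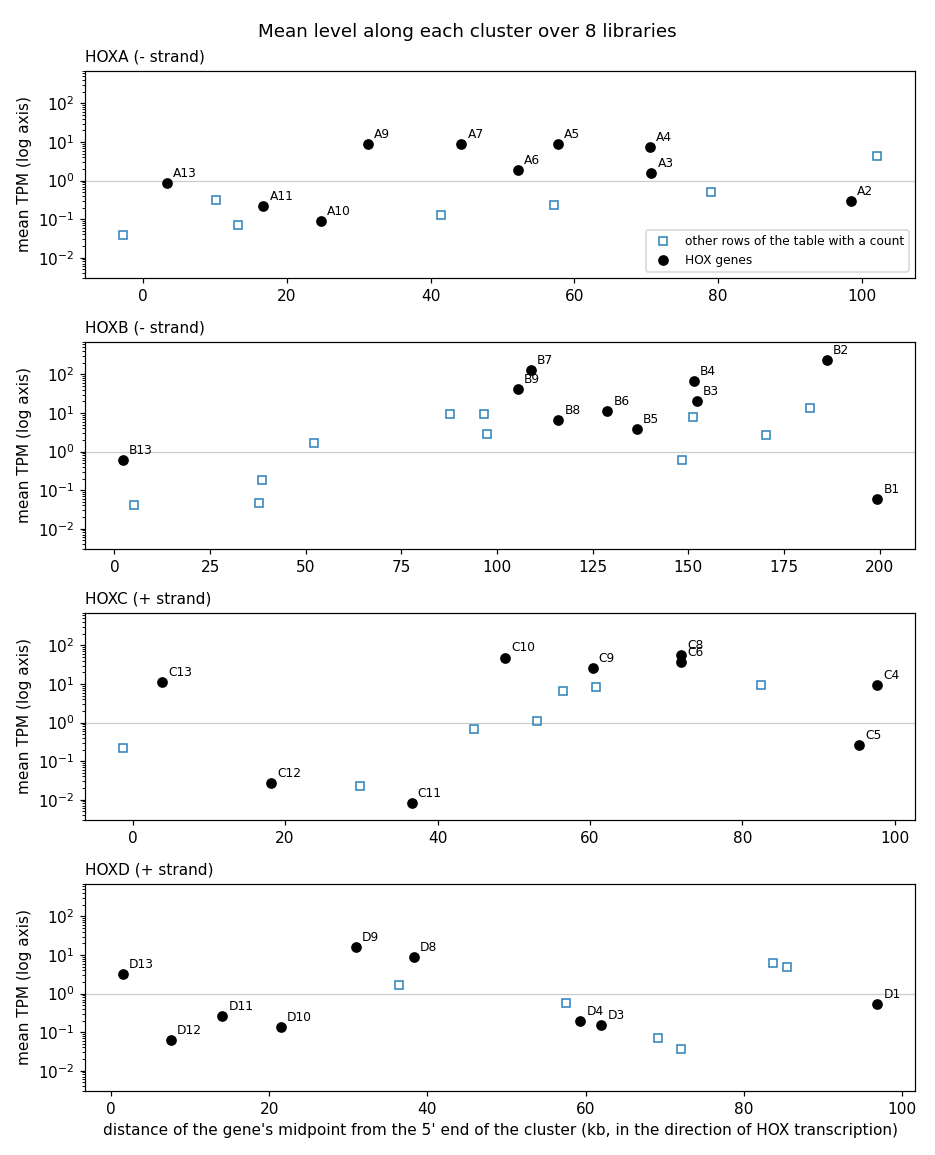
Mean TPM over 8 libraries (log axis) against the distance of a gene's midpoint from the 5' end of its cluster in kb, in the direction in which the HOX genes are read. Black points are HOX genes and open blue squares are other rows of the table with a count. HOXD13 (3.14 TPM) and HOXD9 (16.3 TPM) stand on either side of HOXD12, HOXD11 and HOXD10, all under 1 TPM.

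Start-site sequences show what neighbours with unlike levels share. RefSeq windows (GRCh38.p14) of 250 bases before to 50 bases after a start held 20 of the 39 genes, in 26 windows. Printed here are the neighbours HOXD13 and HOXD12, the neighbours HOXA9 and HOXA10 (for HOXA10 the more upstream of its 2 windows) and the window that RefSeq lists for both HOXC4 (9.50 TPM) and HOXC5 (0.262 TPM), all 5' to 3' on the strand of the gene, with CpG dinucleotides in capitals. That last window lies upstream of the HOXC5 row counted here (chr12:54032853-54035358), so it is not the start of that row.
HOXD13, chr2:176092471-176092770, plus strand: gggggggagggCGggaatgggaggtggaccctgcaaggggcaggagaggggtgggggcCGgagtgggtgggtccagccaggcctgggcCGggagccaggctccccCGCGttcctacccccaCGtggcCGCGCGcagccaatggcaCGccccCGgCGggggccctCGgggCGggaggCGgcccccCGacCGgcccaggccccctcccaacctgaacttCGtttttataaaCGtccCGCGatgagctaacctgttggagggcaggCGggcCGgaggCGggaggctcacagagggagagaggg
HOXD12, chr2:176099545-176099844, plus strand: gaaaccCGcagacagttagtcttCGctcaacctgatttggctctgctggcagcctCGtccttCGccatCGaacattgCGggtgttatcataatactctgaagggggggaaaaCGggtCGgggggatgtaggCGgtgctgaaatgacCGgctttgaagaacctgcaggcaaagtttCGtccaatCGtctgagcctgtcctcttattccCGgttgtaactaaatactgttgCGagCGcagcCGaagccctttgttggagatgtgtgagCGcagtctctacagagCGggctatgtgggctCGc
HOXA9, chr7:27165488-27165787, minus strand: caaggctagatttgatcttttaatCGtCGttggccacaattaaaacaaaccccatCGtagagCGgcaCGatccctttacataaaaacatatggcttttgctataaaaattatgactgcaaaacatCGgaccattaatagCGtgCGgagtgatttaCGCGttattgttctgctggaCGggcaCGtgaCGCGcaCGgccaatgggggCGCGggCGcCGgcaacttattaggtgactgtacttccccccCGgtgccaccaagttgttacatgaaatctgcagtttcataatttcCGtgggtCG
HOXA10, chr7:27179812-27180111, minus strand: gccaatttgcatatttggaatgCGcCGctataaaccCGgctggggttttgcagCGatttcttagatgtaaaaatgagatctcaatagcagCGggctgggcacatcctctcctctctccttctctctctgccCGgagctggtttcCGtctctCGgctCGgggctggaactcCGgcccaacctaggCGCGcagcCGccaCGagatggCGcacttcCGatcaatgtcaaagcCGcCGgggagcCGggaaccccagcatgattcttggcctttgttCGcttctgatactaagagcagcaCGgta
HOXC4 and HOXC5, chr12:54016638-54016937, plus strand: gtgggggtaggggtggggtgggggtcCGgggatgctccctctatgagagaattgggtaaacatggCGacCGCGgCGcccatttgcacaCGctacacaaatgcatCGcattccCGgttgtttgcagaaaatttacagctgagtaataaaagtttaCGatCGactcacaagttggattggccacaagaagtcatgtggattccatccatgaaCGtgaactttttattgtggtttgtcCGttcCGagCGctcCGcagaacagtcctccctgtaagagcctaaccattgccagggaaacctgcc

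The HOXD13 window held 24 and the HOXD12 window 19, the HOXA9 window 22 and the HOXA10 window 21, and the shared HOXC4 and HOXC5 window 15. The median was 24 over the 15 windows of detected HOX genes, 21 over the 11 windows of those not detected (20 over 12 windows with the one that HOXC5 shares, otherwise counted with HOXC4) and 14 over 34943 windows of all genes. Of the 15 windows, 7 belong to HOXA3 alone, with 0 to 29 CpG, and the other 8 had a median of 28. The HOXD4 window held 4. The letters TATAAA, searched on both strands, were in the HOXD13, HOXA9 and HOXA10 windows above and in 5 of 26 HOX windows, against 11.6% of all windows. The letters TGATNNAT, the form of site bound by HOX and PBX proteins together, were in 3 of 26 HOX windows and in 7.42% of all windows. These matches describe the sequence only.

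No HOX gene differed between the KRT19 and EV groups past the adjusted threshold. Genes with enough counts for the test (edgeR's filter on low counts) numbered 26 of 39, namely 8 of HOXA, 9 of HOXB, 6 of HOXC and 3 of HOXD. Their adjusted p-values from edgeR's quasi-likelihood test ran from 0.906 to 0.989, and the count past the threshold was also 0 with DESeq2 and with limma-voom. Over all 14621 genes tested, KRT19 itself was the only gene with an adjusted p under 0.05 (0.00684% of genes), and 791 genes (5.41%) had an unadjusted p under 0.05. Of the 26 HOX genes, 2 had an unadjusted p under 0.05, HOXB13 and HOXC9, both higher in KRT19 (2.85% of all genes were higher and 2.56% lower at that p). HOXB13 entered the test through its KRT19 libraries, since 4 of them and 1 EV library passed the filter's limit of 0.603 CPM, so its call is given as a description. The log2 fold change was above 0 for 15 and below 0 for 11, with a median of 0.027, and over all genes tested the median was 0.0051 and 52.2% were above 0.

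The intervals show how far a difference could go unseen. The 95% interval of the log2 fold change lay wholly within 1 on either side of 0 for 25 of the 26 and within 0.5 for 19. The median interval reached 0.271 to each side of its estimate. The 7 genes with a standard error under 0.1 were HOXB2, HOXB3, HOXB4, HOXB7, HOXB9, HOXC6 and HOXC10, and their fold changes ran from -0.07 (HOXC10) to 0.05 (HOXB7). The widest interval was that of HOXB13.

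**Figure D3:**
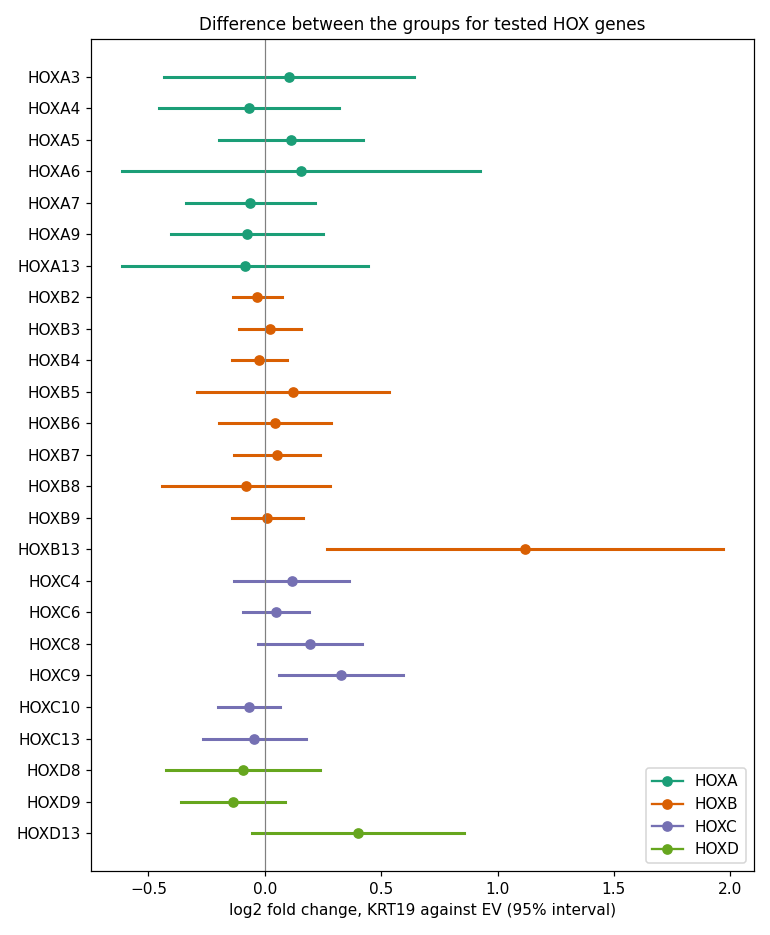
log2 fold change of KRT19 against EV (horizontal axis) for the tested HOX genes reported here, as edgeR estimates (points) with 95% intervals (lines), colored by cluster. The intervals of HOXB13 (0.27 to 1.97) and HOXC9 (0.061 to 0.59) lie above 0 and those of the other genes cross it, and none passed the adjusted threshold.

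In the highest gene of each cluster, the libraries of both groups overlapped. HOXB2 (ENSG00000173917) had 156, 146, 149 and 159 CPM in EV replicates 1 to 4 and 143, 149, 155 and 149 CPM in KRT19 replicates 1 to 4. Both groups covered nearly the same range, with means of 152 ± 6.13 and 149 ± 5.17 CPM (SD, n = 4 each) and a log2 fold change of -0.03 ± 0.05 (SE, 95% interval -0.14 to 0.07). For HOXD9 (ENSG00000128709), a gene of the axial skeleton and the limb, the EV libraries had 8.32, 10.4, 8.21 and 8.71 CPM and the KRT19 libraries 7.91, 7.96, 8.20 and 8.34 CPM. EV replicate 2 was the highest library, and the log2 fold change was -0.14 ± 0.11 (SE, 95% interval -0.36 to 0.09) and -0.056 without that library.

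HOXA7 (ENSG00000122592) had 7.12, 5.42, 5.72 and 6.18 CPM in EV and 5.01, 6.68, 6.21 and 5.49 CPM in KRT19. The groups ran through each other, with a log2 fold change of -0.06 ± 0.13 (SE, 95% interval -0.34 to 0.21) that turned to 0.015 without EV replicate 1 and to 0.0055 without KRT19 replicate 1. HOXC8 (ENSG00000037965), a gene of the thoracic level, had 28.95, 27.0, 27.1 and 28.2 CPM in EV and 25.3, 31.1, 40.8 and 29.8 CPM in KRT19. Here KRT19 replicate 3 lay far above the rest and replicate 1 below every EV library. The log2 fold change of HOXC8 was 0.19 ± 0.11 (SE, edgeR unadjusted p = 0.0863, adjusted p = 0.906), and it was 0.044 without KRT19 replicate 3 and 0.29 without KRT19 replicate 1, where the unadjusted p was under 0.05.

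HOXB13 (ENSG00000159184, chr17:48724763-48729178) was the only one of the 26 whose groups did not overlap, against 3.44% of all genes tested. Its counts were 9, 8, 2 and 4 in EV and 11, 9, 17 and 12 in KRT19, or 0.360 ± 0.219 and 0.773 ± 0.163 CPM (SD, n = 4 each). Every KRT19 library lay above every EV library in CPM, and EV replicate 3 was at 2 counts, under the floor. The log2 fold change was 1.12 ± 0.40 (SE, 95% interval 0.27 to 1.97, edgeR unadjusted p = 0.0131, adjusted p = 0.906), and the exact two-sided permutation p was 0.0286, the smallest that 4 libraries against 4 can give and the value that any gene without overlap has. The fold change was 0.83 without EV replicate 3 and 0.97 without KRT19 replicate 3. Since HOXB13 entered the test through its KRT19 libraries, these p-values, the interval and the lack of overlap are given as a description only.

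HOXC9 (ENSG00000180806, chr12:53994895-54003337), a gene of the thoracic and lumbar levels, had 181, 195, 157 and 171 counts in EV and 237, 158, 288 and 177 in KRT19. In CPM these were 12.05, 11.8, 9.55 and 10.1 against 14.3, 11.2, 16.9 and 11.7. KRT19 replicates 1 and 3 lay above every EV library and replicates 2 and 4 within the EV range. The log2 fold change was 0.33 ± 0.13 (SE, 95% interval 0.061 to 0.59, edgeR unadjusted p = 0.0188, adjusted p = 0.906), and the exact permutation p was 0.171. Without KRT19 replicate 3 the fold change was 0.20, and HOXC9 then no longer had an unadjusted p under 0.05, nor did it without EV replicate 3, without EV replicate 4 or with limma-voom.

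The remaining 20 tested genes overlapped between the groups. In HOXA the log2 fold changes of the other 7 ran from -0.08 (HOXA13) to 0.15 (HOXA6), and both of these turned sign when 1 library was left out (0.078 for HOXA13 without EV replicate 3, -0.079 for HOXA6 without EV replicate 1). Among the other HOXB genes they ran from -0.08 (HOXB8) to 0.12 (HOXB5), which also turned sign in such fits, and HOXB7 stood at 0.05 ± 0.09 (SE). In HOXC they ran from -0.07 for HOXC10, where EV replicate 4 (29.3 CPM) lay below the other EV libraries (32.7 to 33.2), to 0.12 for HOXC4. HOXD8 stood at -0.09 and HOXD13 at 0.40 ± 0.22 (SE, edgeR unadjusted p = 0.0805, adjusted p = 0.906). HOXD13, a gene of the digits and the external genitalia, had 1.597, 1.87, 1.89 and 1.41 CPM in EV and 1.99, 2.06, 2.99 and 1.85 CPM in KRT19, so only KRT19 replicate 4 fell within the EV range. Leaving out KRT19 replicate 3 moved it to 0.22.

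**Figure D4:**
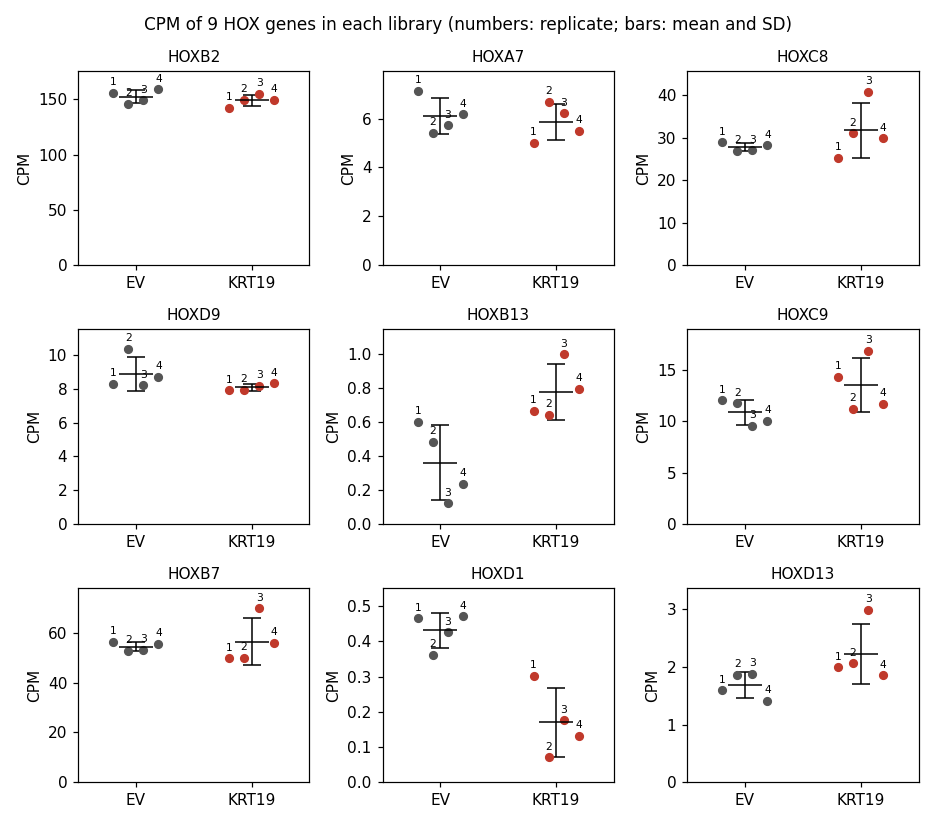
CPM of 9 HOX genes in each library, on linear axes from 0, with the replicate number beside each point and bars for the mean and SD of a group (n = 4). The groups lie apart for HOXB13 (0.360 against 0.773 CPM on average) and HOXD1 (0.431 against 0.170 CPM) and overlap in the other 7, where KRT19 replicate 3 is the highest point for HOXC8 (40.8 CPM) and HOXC9 (16.9 CPM).

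The HOX genes of KRT19 replicate 3 tended to exceed those of the other KRT19 libraries. This library was the highest of its group for 14 of the 26 tested HOX genes, and it was the highest for 33.1% of all genes tested. It lay above the mean of the other 3 for 18 of 26 (49.7% of all genes), with a median difference of 0.117 on the log2 CPM scale, where the median over all genes was -0.0014. By that difference 8 HOX genes were in the top 10% of all genes: HOXA6, HOXB5, HOXB7, HOXB13, HOXC8, HOXC9, HOXD8 and HOXD13. The same count was 7 in EV replicate 1, 5 in EV replicate 2 and 1 to 4 in the other 5 libraries, and EV replicate 2 lay above the mean of its group's other libraries for 16 of 26. HOXB7 had 49.7, 49.8, 69.7 and 55.9 CPM in the 4 KRT19 libraries and 52.6 to 56.2 CPM in EV. Its log2 fold change turned from 0.05 to -0.07 without KRT19 replicate 3. In the same fit HOXA4 turned from -0.07 to 0.013, HOXB3 from 0.02 to -0.020, HOXB5 from 0.12 to -0.013 and HOXB6 from 0.04 to -0.018. HOXA6 moved from 0.15 to 0.014 and HOXD8 from -0.09 to -0.25, and the median over the tested HOX genes turned from 0.027 to -0.015. Its total of 16893341 counts lay within the range of the other libraries. The part of this library's other differences in these values was not tested.

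**Figure D5:**
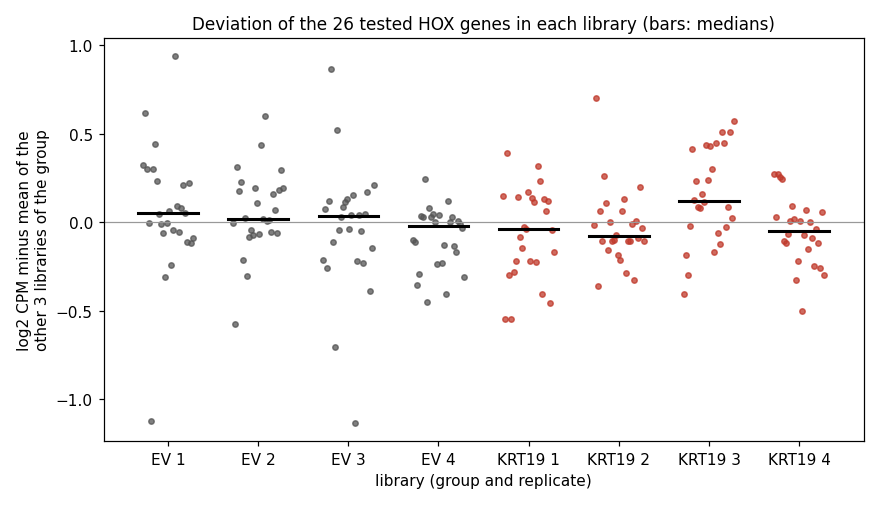
Difference between the log2 CPM of each of the 26 tested HOX genes in a library and its mean in the other 3 libraries of the group (vertical axis), for all 8 libraries, with bars at the medians. The median is 0.117 in KRT19 replicate 3 and between -0.080 and 0.050 in the other 7 libraries.

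Of the 13 HOX genes left out by the filter on low counts, only HOXD1 (ENSG00000128645, chr2:176188579-176190907) had groups that did not overlap. It is the most 3' gene of its cluster, and it was singled out after its values were seen. Its counts were 7, 6, 7 and 8 in EV and 5, 1, 3 and 2 in KRT19, or 0.431 ± 0.0505 and 0.170 ± 0.0977 CPM (SD, n = 4 each). The KRT19 libraries lay lower in every case, with 3 of them at or under the floor of 3 counts. With all genes of at least 1 count admitted to the test, the edgeR unadjusted p was 0.0326 and the adjusted p 0.761. Among 15629 genes with a count that were not tested, the groups did not overlap in 1.52%, and 0.793% were lower in KRT19. Just over 50% of the HOXD1 exon bases (50.1%) lie opposite the antisense row AC009336.3, which was at 0, and 158 of its exon bases opposite HAGLR, which had 126 to 173 counts and a log2 fold change of -0.20 ± 0.11 (SE, edgeR unadjusted p = 0.0993, adjusted p = 0.906).

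The clusters hold 62 further rows of the table, antisense and other noncoding RNAs among them, and 14 of them were detected. The same number was tested, 3 with a log2 fold change above 0 and 11 below, and 0 had an edgeR unadjusted p under 0.05. With EV replicate 3 left out, HAGLR had an edgeR unadjusted p of 0.0193 (log2 fold change -0.28, adjusted p 0.997). HAGLR in HOXD was the most abundant by counts, followed by AC012531.1 in HOXC (83 to 133 counts), HOXB-AS1 (73 to 121), AC103702.2 in HOXB (45 to 112), HOXB-AS3 (44 to 86), HOXC-AS2 (52 to 78) and HOTAIRM1 (20 to 43), an RNA from the 3' end of HOXA. HOTAIR in HOXC had 0 to 1 counts and HOTTIP at the 5' end of HOXA 0 to 3. Another 31 rows were at 0 in all libraries.

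MicroRNA genes also lie in the clusters, and those of the miR-196 family are known to target HOX transcripts. Their rows had few reads: MIR196A1 in HOXB had 0 to 6 counts, MIR196A2 in HOXC 0 to 2, MIR10B in HOXD 0 to 2, and MIR10A, MIR196B and MIR615 were at 0. Such libraries do not measure mature microRNAs, so these counts say nothing of their level. The mature sequences (RefSeq, GRCh38.p14) are shown because 3 of the 4 clusters carry the same miR-196 seed, given with that of miR-10a in capitals (bases 2 to 8).
hsa-miR-196a-5p, from MIR196A1 (chr17:48632532-48632553, minus strand) and MIR196A2 (chr12:53991762-53991783, plus strand): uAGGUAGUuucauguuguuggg
hsa-miR-196b-5p, from MIR196B (chr7:27169528-27169549, minus strand): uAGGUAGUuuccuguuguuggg
hsa-miR-10a-5p, from MIR10A (chr17:48579904-48579926, minus strand): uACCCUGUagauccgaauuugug

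Partners and regulators of HOX genes were examined as lists, and none of their genes passed the adjusted threshold. Of 9 TALE cofactors 7 were tested, and 0 had an edgeR unadjusted p under 0.05. PBX3 was the highest at 122 TPM, followed by PBX2 (60.8) and MEIS2 (11.3). Of 22 Polycomb genes all were tested, and 1 was higher at that p, where 2.85% of all genes were. This gene was MTF2, a PRC2 subunit (log2 fold change 0.21 ± 0.09 SE, edgeR unadjusted p = 0.0296, adjusted p = 0.906). Leaving out KRT19 replicate 3 gave 0.13 (edgeR unadjusted p 0.0985), leaving out EV replicate 3 gave 0.13 (0.123), and leaving out KRT19 replicate 4 gave 0.21 (0.0544). PHC2 (243 TPM), PHF19 (105) and RBBP7 (93.8) were the most abundant of this list. Of 12 trithorax proteins and other activators all were tested with 0 at that p, and WDR5 (113 TPM), DPY30 (56.5) and KMT2B (55.2) led by level.

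At an unadjusted p under 0.05, where 5.41% of all genes stood, were 1 of the cohesin and CTCF genes and 2 of the retinoid genes. The 4 genes of CTCF and the cohesin ring were all tested, each with a log2 fold change above 0. SMC3, a core cohesin subunit, had an edgeR unadjusted p of 0.0097 (log2 fold change 0.22 ± 0.08 SE, adjusted p = 0.889), and without KRT19 replicate 3 the fold change was 0.14 and the unadjusted p 0.0282. Of 16 retinoid genes 7 were tested, with CRABP2 (79.4 TPM), RARG (45.8) and RXRB (38.8) the highest. CYP26B1, an enzyme that degrades retinoic acid, had 5 to 18 counts and a log2 fold change of 0.95 ± 0.33 (SE, edgeR unadjusted p = 0.0112, adjusted p = 0.906). Like HOXB13 it entered the test through its KRT19 libraries (4 of them and 1 EV library passed the filter's limit), so this is a description. DHRS3, a retinal reductase induced by retinoic acid, had 49 to 113 counts and a log2 fold change of -0.47 ± 0.17 (SE, edgeR unadjusted p = 0.0156, adjusted p = 0.906), which was -0.35 without EV replicate 3, with an unadjusted p of 0.0673. None of the 5 CDX and EVX genes, the caudal-type regulators and the homeobox genes next to the clusters, was detected. Of the 155 other homeobox genes, 64 were tested, 2 were higher and 2 lower at an edgeR unadjusted p under 0.05, where 2.85% of all genes were higher and 2.56% lower, and 0 passed the adjusted threshold.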

How the data were processed

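Cells labelled A549 were measured by RNA-seq in 8 libraries, and groups and replicate numbers were read from the sample titles. The authors deposited raw read counts per gene for hg38, without normalization. Per the submitters' processing notes, Bowtie 0.12.2, featureCounts 1.5.0-p3 and DESeq2 were used, while settings for strand and for reads in several genes are not given in the sources used here. Gene lengths and coordinates of all 58735 deposited rows equal those of GENCODE 29.

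Counts were tested in R 4.3.3 with edgeR 4.0.16 (filterByExpr, TMM normalization, quasi-likelihood test of KRT19 against EV, Benjamini-Hochberg adjustment over 14621 genes, threshold 0.05). Standard errors were derived from the F statistic. CPM used TMM-scaled library sizes, log2 CPM a prior count of 2, and TPM the deposited lengths. Exact permutation tests were two-sided, on log2 CPM. No 2 libraries of a group agreed within sampling noise (2.67 chi-square units per degree of freedom or more).

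The HOX genes and the further lists were chosen with earlier results of these data known. Values in every library were given by rule for the gene of highest TPM in each cluster and for each tested gene with an unadjusted p under 0.05 or without overlap between groups, and HOXB7, HOXD1, HOXD13 and the range for HOXC10 were added after their values were seen. Alternatives were DESeq2 1.42.0, limma-voom (limma 3.58.1), other normalizations, filters and library sizes, a replicate block, and leaving out each library. Depth of 14073065 to 17054364 counts limits precision for genes near 3 counts. Results for some single genes are not reported here, and counts over the HOX genes and lists include them.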

Additional observations from a re-analysis of the deposited data

Results flagged for a closer look

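In 2 cases 1 library of a group lay farther from the other 3 than Dixon's 95% critical value for 4 samples allows, measured as its gap to the nearest library over the range of the group. For HOXC10 in the EV group, EV replicate 4 was the lowest (29.3 CPM against 32.7 to 33.2) and the gap was 0.886 of the range. For KRT19 in the KRT19 group, KRT19 replicate 3 was the lowest (8.17 on the log2 CPM scale against 8.27 to 8.28) and the gap was 0.949 of the range. Chance flags about 1 in 20 groups, and over all genes tested 5.36% had such a gap in EV and 5.68% in KRT19. The cause of either gap was not tested.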

How the results depend on the processing

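The number of HOX genes past the adjusted threshold was 0 in all 16 alternatives, and KRT19 stayed past it. Over all genes that number was 1, and it became 71 with every gene of at least 1 count tested, 5 with DESeq2, 8 with limma-voom and 1 to 5 when 1 library was left out (3 without EV replicate 1, 5 without KRT19 replicate 3). HOX genes with an unadjusted p under 0.05 numbered 2, then 4 with the looser filter (HOXC8 and HOXD1 added), 1 with the stricter filter (HOXB13 not tested), 1 with limma-voom (HOXB13) and 1 to 3 when 1 library was left out (1 without EV replicate 3, EV replicate 4 or KRT19 replicate 3, 3 without KRT19 replicate 1). The cause of the limma-voom and DESeq2 counts was not tested. The HOX median ran from -0.015 to 0.046 with 1 library left out and was -0.0082 with the stricter filter, which kept 16 of the genes. HOXB13 ran from 0.83 to 1.45 and HOXC9 from 0.20 to 0.40 over the alternatives (adjusted p 0.372 to 1.00 and 0.315 to 1.00).

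The sign turned for HOXA4 (0.044), HOXA13 (0.028), HOXB5 (-0.012) and HOXB7 (-0.016) with limma-voom and for HOXB9 (-0.0011) with upper-quartile normalization, where the median of all genes was -0.0068. With 1 library left out, ranges of log2 fold change crossed 0 for 16 of the genes reported here: HOXA3 (-0.10 to 0.28), HOXA4 (-0.18 to 0.014), HOXA6 (-0.079 to 0.44), HOXA7 (-0.13 to 0.015), HOXA9 (-0.23 to 0.036), HOXA13 (-0.20 to 0.078), HOXB3 (-0.020 to 0.059), HOXB4 (-0.053 to 0.00050), HOXB5 (-0.013 to 0.20), HOXB6 (-0.018 to 0.098), HOXB7 (-0.070 to 0.11), HOXB8 (-0.16 to 0.042), HOXB9 (-0.021 to 0.053), HOXC6 (-0.015 to 0.081), HOXC13 (-0.075 to 0.00031) and HOXD8 (-0.25 to 0.017). Other genes kept their sign, but the log2 value itself grew or shrank by over 1.5 times. These were HOXA5 (0.040 to 0.19), HOXC4 (0.026 to 0.15), HOXC8 (0.044 to 0.29), HOXC9 (0.20 to 0.40), HOXC10 (-0.11 to -0.053), HOXB2 (-0.054 to -0.011), HOXD9 (-0.17 to -0.056) and HOXD13 (0.22 to 0.48). That ratio compares log2 values and is not a 1.5-fold change in level.

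Replicate numbers did not pair the libraries (correlations of same-numbered residuals -0.111, -0.0239, -0.159 and 0.0567). With the replicate block, 451 genes (3.08%) had an unadjusted p under 0.05 and 1 passed the adjusted threshold, with 2 and 0 of the HOX genes. Depth limits the 14 HOX genes near 3 counts.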
